A study of Canis lupus familiaris with 51 samples.

Results

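The negative side of the first principal component of canine hemangiosarcoma expression is described here through its 150 genes with the most negative loadings. They were chosen out of 12887 genes that reached at least 1 FPKM (sequenced fragments per gene, scaled for the gene's length and the size of the library) in at least 3 of 46 tumours, from a deposited table of 16382 genes. A principal component is a weighted sum of all genes that captures as much of the variation between tumours as one number can, and a gene's loading is its weight in that sum. The sign was set so that the tumour titled DHSA-0601 (spleen 7 here) scored positive, and 0 of the 150 genes exceeded their 46-tumour median in it. The component held 23.1% of the variance of log2(FPKM + 1) over the 46 tumours, and the next one held 11.2%. All values of the 150 genes in these 46 tumours went into their choice, so their levels and their movement together are given as a description, without a test.

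RNA was sequenced from 51 dog tumours labelled hemangiosarcoma, with no treatment or normal tissue among the groups used here. The tissue labels gave 32 tumours as spleen, 11 as heart and 3 as liver, and 5 labels held 1 tumour each (cutaneous, metastatic tumor, abdominal mass, metastatic abdominal mass and undetermined histogenic origin). In the spleen group 16 dogs were female and 16 male (12 intact, 20 neutered), and 20 were Golden Retrievers and 12 of other breeds, at 3 to 13.6 years of age. The heart tumours came from 3 females and 8 males (5 intact, 6 neutered), 6 of them Golden Retrievers, at 5.9 to 11.2 years. The liver tumours came from 3 females (1 intact, 2 neutered), 1 of them a Golden Retriever, at 9.6 to 10.9 years. The 5 tumours with labels of their own came from 4 females and 1 male. The cutaneous tumour was from a neutered female Bichon Frise of 10.7 years, and the abdominal mass from an intact male Boxer of 8.7 years. The metastatic abdominal mass was from a neutered female Lab/Husky Mix of 9 years. Both remaining tumours were from female Golden Retrievers, the metastatic tumor from a neutered dog of 11.3 years and the one of undetermined origin from an intact dog of 0.7 years. Tumours are named below by label and a running number. Each library is a bulk tumour sample, so fewer cells of a type and less RNA per cell cannot be told apart. Nothing in the labels says that no dog gave more than 1 tumour, and the p-values therefore cover the spread between these samples only.

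Hemangiosarcoma is a malignant tumour of cells related to the lining of blood vessels, and in dogs it arises most often in the spleen, with the heart and liver among its other sites. Tumours of this kind hold blood-filled channels, stroma and infiltrating cells besides the malignant cells. A gene's level in a bulk sample sums over all of them. The files carry Ensembl identifiers without symbols, and 0 of the 16382 identifiers matched the symbol table used here, from assembly UU_Cfam_GSD_1.0. The marker lists could therefore not be scored, the labelled tissues were not checked against markers, and the genes are described by identifier and level rather than by function.

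Sequencing depth relative to the median library, solved from the steps of low FPKM values, ran from 0.53 to 2.13 in spleen, 0.85 to 1.49 in heart and 1.03 to 1.44 in liver. Spleen 14 and spleen 20 stood apart from the other tumours in their values of the 150 genes, as described below, and the results were also computed without them.

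Tumours differed several-fold in the level of these genes. The mean log2(FPKM + 1) over the 150 genes had a lowest value of 2.13, a median of 4.53 and a highest value of 5.83 in the 32 spleen tumours. In the 11 heart tumours these values were 3.45, 5.3 and 5.65. The 3 liver tumours were at 4.62, 5.2 and 5.54. Spleen tumours covered the whole range, while all heart tumours but one lay at 4.55 or above. The exception was heart 5, at 3.45. The means were 4.16 ± 1.16 in spleen (SD, n = 32), 5.09 ± 0.64 in heart (SD, n = 11) and 5.12 ± 0.47 in liver (SD, n = 3), so the heart and liver groups lay within the spread of the spleen group.

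**Figure D1:**
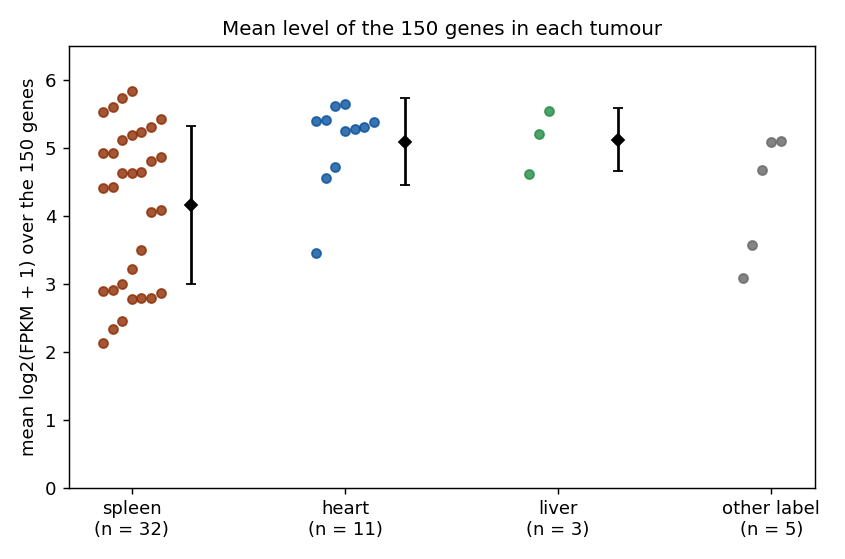
Mean log2(FPKM + 1) over the 150 genes (vertical axis) in each tumour, by tissue label (horizontal axis), with each point a tumour and the diamonds and bars the mean and SD of a group. Spleen tumours run from 2.13 to 5.83, and heart 5, at 3.45, is the one heart tumour below 4.55.

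The 10 tumours with the lowest mean level were all labelled spleen. They were spleens 18, 29, 19, 21, 20, 7, 14, 24, 27 and 30, with means from 2.13 to 3.0, and the next tumour, spleen 1, was at 3.22. Of these 10 dogs 7 were female, 7 were neutered, 5 were Golden Retrievers and 2 were German Shepherd Dogs. Their ages were 9.5 to 13.6 years with a median of 11.35, against a median of 10.0 in the other 36 dogs. Their median relative depth was 0.916, against 1.029 in the other 36, and ranged from 0.526 to 1.592. These tumours were picked by the level of the genes, so the figures describe them and were not tested.

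The genes together took a small share of the deposited signal. They made up 0.25% to 5.31% of the summed FPKM in spleen (median 2.48), 0.88% to 5.16% in heart (median 3.37) and 1.63% to 4.69% in liver (median 4.05). In spleen 18, at the bottom of the range, the median of the 150 genes was 2.849 FPKM, and 1 of them exceeded its own median over the 46 tumours. In spleen 12, at the top, the median was 62.045 FPKM and 137 of the 150 genes exceeded their medians. The share of all tested genes above their medians was 47.9% in spleen 18 and 49.1% in spleen 12. FPKM is scaled to the size of the library, so these shares cannot show a change common to all genes.

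The 150 genes were moderately abundant and varied widely. The median of their mean levels was 4.36 on the log2(FPKM + 1) scale, against 3.71 for all 12887 genes tested. The median of their standard deviations across the 46 tumours was 1.44 on the same scale (range 0.98 to 2.46), against 0.51 for all genes tested. A wide spread is part of how the genes were chosen, because loadings were computed without scaling the genes. Across tumours the median was under 5 FPKM for 20 genes, from 5 to under 20 FPKM for 48, from 20 to under 100 FPKM for 65 and at least 100 FPKM for 17. The median over genes was 23.79 FPKM, and single genes ran from 0.62 to 2122.03 FPKM. In their lowest tumour the genes had a median of 0.73 FPKM and in their highest one a median of 119.19 FPKM. In all 46 tumours 64 of the genes stayed at or above 1 FPKM, and 15 were listed at 0 in at least 1 tumour. A listed 0 need not mean absence, since 10 of the 4586 genes in the table with a median of at least 20 FPKM were also listed at 0 somewhere.

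The gene with the most negative loading, ENSCAFG00000006073, had a loading of -0.0403. In spleen its FPKM had a lowest value of 0.372 (spleen 24), a median of 70.68 and a highest value of 739.6 (spleen 20). In heart it ran from 6.562 (heart 5) through a median of 234.1 to 931.2 (heart 10). The liver tumours were at 167.2, 58.84 and 19.8 FPKM. Of the 11 heart tumours 10 lay above the spleen median, and the groups overlapped over nearly their whole ranges. Its level was 2.14 ± 0.73 higher in heart than in spleen on the log2(FPKM + 1) scale (SE, limma adjusted p = 0.311), which did not pass. Weighting each library by its distance from the fit (array weights) gave 2.27 (limma adjusted p = 0.031).

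The second, ENSCAFG00000006063, had a loading of -0.0369. Its FPKM in spleen had a median of 11.81 and a highest value of 218.7 (spleen 31), and it was listed at 0 in spleen 14 and spleen 27. The heart tumours ran from 3.496 (heart 8) through a median of 46.46 to 124.8 (heart 7). The liver tumours were split, at 159.3, 2.26 and 153.3 FPKM. No heart tumour exceeded the highest spleen tumour. The heart minus spleen difference was 1.49 ± 0.76 on the log2(FPKM + 1) scale (SE, limma adjusted p = 0.486).

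**Figure D2:**
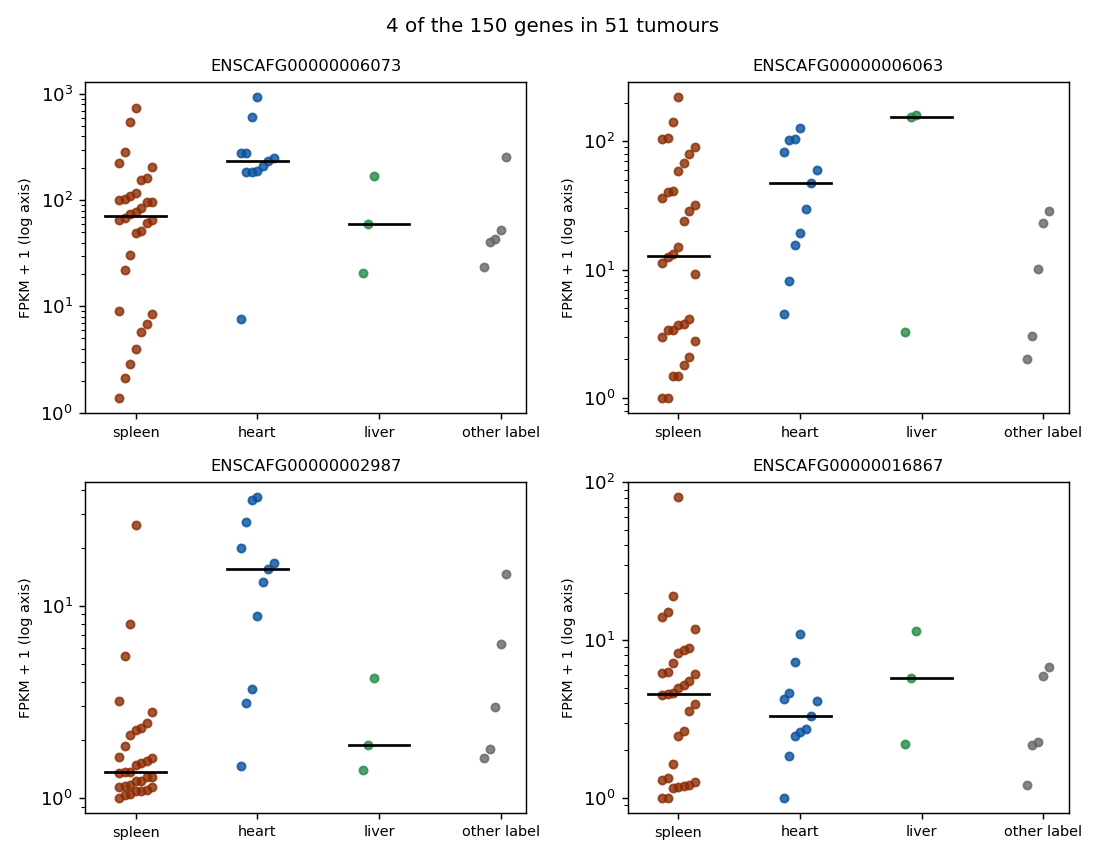
FPKM + 1 on a log axis (vertical) for 4 of the 150 genes in each tumour, by tissue label (horizontal), with points as tumours and black lines as group medians. ENSCAFG00000002987 has a heart median of 14.51 FPKM against 0.358 in spleen, while the heart and spleen ranges of all 4 genes overlap.

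The genes moved together across tumours. Over the 46 tumours the mean pairwise correlation of log2 levels was 0.552 among the 150 genes and 0.004 among all 12887 genes tested. It was 0.563 in the 32 spleen tumours alone and 0.396 in the 11 heart tumours alone, against 0.004 and 0.006 for all genes. Of 11175 pairs of genes 8 had a correlation below 0 and 36 had one above 0.9, with a median of 0.565. These correlations share the libraries that chose the genes, and genes are not independent replicates. Each of the 150 genes fell as the score rose, with correlations to the score from -0.848 to -0.367 and a median of -0.679.

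Grouping by average linkage at a correlation of 0.5, a step chosen after the values were seen, left 125 of the genes in a single block. Its mean level had a lowest value of 2.34, a median of 4.71 and a highest value of 6.12 in spleen. In heart the same values were 3.62, 5.41 and 5.79, and in liver 4.76, 5.64 and 5.76. The next block held 9 genes, whose mean level in spleen had a lowest value of 0.36, a median of 2.45 and a highest value of 5.46. In heart its values were 2.26, 4.72 and 6.6, with the highest levels of all 46 tumours in heart 10 (6.6) and heart 9 (5.77). The liver tumours were at 2.23, 2.73 and 4.43 in this block. The other 16 genes fell into 3 blocks of 3 genes, 2 blocks of 2 genes and 3 single genes. In the blocks of 3 genes the median level was 3.81, 1.31 and 3.94 in spleen and 5.87, 3.12 and 4.55 in heart. One of the single genes ran from 0.58 in spleen 20 to 10.74 in liver 3 on the log2(FPKM + 1) scale, with medians of 6.98 in spleen, 7.01 in heart and 7.29 in liver. Its spleen values reached 9.95 and its heart values ran from 3.53 to 10.63.

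Single tumours decided the top value of some genes. The highest value was in a spleen tumour for 88 genes, in a heart tumour for 42 and in a liver tumour for 20, spread over 24 tumours. Spleen 12 held the highest value of 19 genes and heart 11 of 18. For 5 genes the highest value was more than 3 times the next one. One of them stood at 4172.17 FPKM in heart 11, with 574.61 in the next tumour and a median of 33.21. Another had 516.4 FPKM in heart 10 and 169.3 in heart 9, with a median of 1.47.

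The lowest values were more concentrated. They lay in a spleen tumour for 146 of the 150 genes and in a heart tumour for 4. Spleen supplied 32 of the 46 tumours, and neither lowest nor highest values were counted by tissue over all genes tested. Spleens 14, 20, 27, 18, 29 and 19 held the lowest value of 36, 22, 19, 17, 14 and 10 genes, 118 in all.

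The 150 genes at the opposite end of the component offered a direct contrast. The mean log2 level of the positive-side genes ran from 0.99 to 6.23 over the 46 tumours, and its correlation with the mean level of the negative-side genes was -0.743. Single negative-side genes had correlations with it from -0.769 to -0.31. Both sets were chosen from the same component, so an inverse relation is part of the choice. The positive-side genes were less abundant, with a median of mean levels of 2.72 against 4.36 on the log2 scale. They also spread more, with a median SD of 1.72 against 1.44, and had a mean pairwise correlation of 0.706 against 0.552.

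Low levels of the negative-side genes did not always come with high levels of the positive side. Of the 10 tumours with the lowest negative-side mean, 7 were among the 10 with the highest positive-side mean. Spleen 14 had a negative-side mean of 2.86 and a positive-side mean of 1.7, and spleen 20 had 2.79 and 2.55. Their scores on the component, -9.0 and 1.7, were near the middle of a range from -66.2 to 77.8. In spleen 14 98 of the 150 genes were below their lower quartile over the 46 tumours, yet 19 were above their upper quartile. In spleen 20 these numbers were 104 and 19. The gene with the highest median, 2122.03 FPKM, reached 13798.9 FPKM in spleen 14, or 1.82% of the summed FPKM of that library. Spleen 14 and spleen 20 had relative depths of 1.113 and 0.852. The opposite departure was seen in spleen 23, where both means were high, at 5.19 and 4.61. Without spleens 14 and 20 the correlation between the sides was -0.846.

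**Figure D3:**
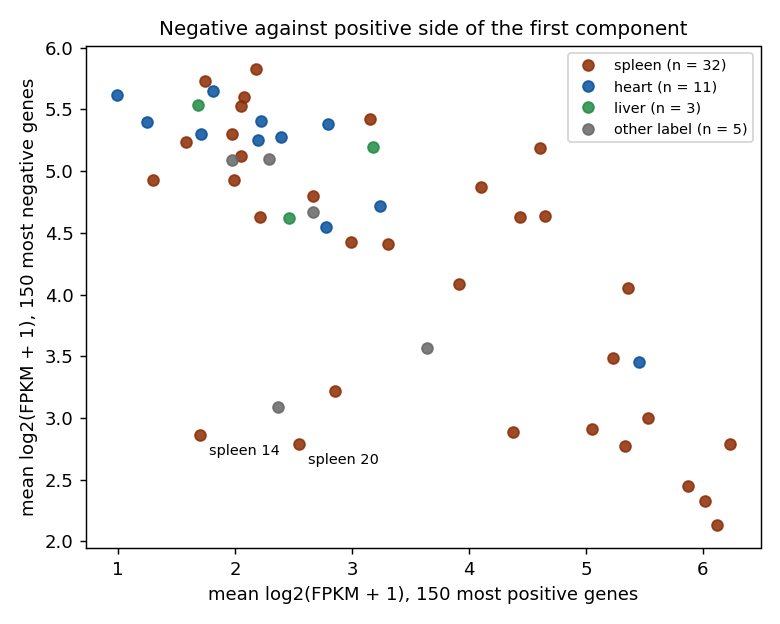
Mean log2(FPKM + 1) of the 150 most negative genes (vertical axis) against that of the 150 most positive genes (horizontal axis), with 1 point per tumour coloured by tissue label. The points broadly fall from upper left to lower right. Among those that depart are spleen 14 and spleen 20, with negative-side means of 2.86 and 2.79. Their positive-side means of 1.7 and 2.55 are both below the 46-tumour median of 2.79. The tumour of undetermined histogenic origin is likewise low on the negative side without a high positive side (3.09 and 2.37), and spleen 23 is high on both (5.19 and 4.61).

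The 5 tumours with other labels took no part in choosing the genes. The cutaneous tumour, the abdominal mass and the metastatic abdominal mass had mean log2 levels of 5.1, 5.09 and 4.67, where the median of the 46 was 4.76. The metastatic tumour was at 3.57 and the tumour of undetermined histogenic origin at 3.09. Of the 150 genes 110 exceeded their 46-tumour median in the cutaneous tumour, 111 in the abdominal mass and 73 in the metastatic abdominal mass. In the metastatic tumour 24 did so, and 23 did in the tumour of undetermined histogenic origin. As shares these are 73.3%, 74.0%, 48.7%, 16% and 15.3%, where the shares of all tested genes were 49.9%, 48.7%, 51.2%, 48.6% and 47.2%. The genes thus stood on the same side together in 4 of these 5 tumours. Their mean pairwise correlation over the 5 tumours was 0.368, against 0.002 for 12846 genes of the whole table. The low pair had positive-side means of 3.64 and 2.37, so the second was low without a high positive side. The metastatic tumour and the tumour of undetermined histogenic origin had the lowest relative depths of the 5, 0.747 and 0.758, whose part in these levels was not tested. With 1 tumour per label there is no replicate check.

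The leading gene did not follow the set in these tumours. ENSCAFG00000006073 stood at 257.1 FPKM in the metastatic tumour and at 51.33 in the tumour of undetermined histogenic origin, and at 42.17, 39.57 and 22.55 FPKM in the cutaneous tumour, the abdominal mass and the metastatic abdominal mass. ENSCAFG00000006063 followed it, with 2.03 and 1.03 FPKM in the low pair and 21.91, 27.43 and 9.18 FPKM in the other three.

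Heart tumours were compared with spleen tumours because the labels separate tumours by site. The component was computed without the labels, but the genes share one axis, so their differences are not independent of each other. limma called 3 of the 150 genes higher in heart and 0 lower at an adjusted p under 0.05, where 0.155% of all 12887 genes tested were called higher. The median difference was 0.84 on the log2(FPKM + 1) scale for the 150 genes and 0.001 for all genes tested. The difference was positive for 148 of the 150 genes and negative for 2, with a range of -0.26 to 2.84 and a median SE of 0.47. Before adjustment 59 genes of the set had a p under 0.05, all higher in heart, or 39.3%, where 5.87% of all genes tested were higher and 4.66% lower (10.5% in either direction). The heart and spleen values overlapped for all 150 genes, and for 0 of them did the heart median exceed the highest spleen value. These counts were not made over all genes tested, so the overlap cannot be called particular to the set. Heart tumours came from somewhat younger dogs, with a median of 9.1 years against 10.15 in spleen, and from 8 males among 11.

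**Figure D4:**
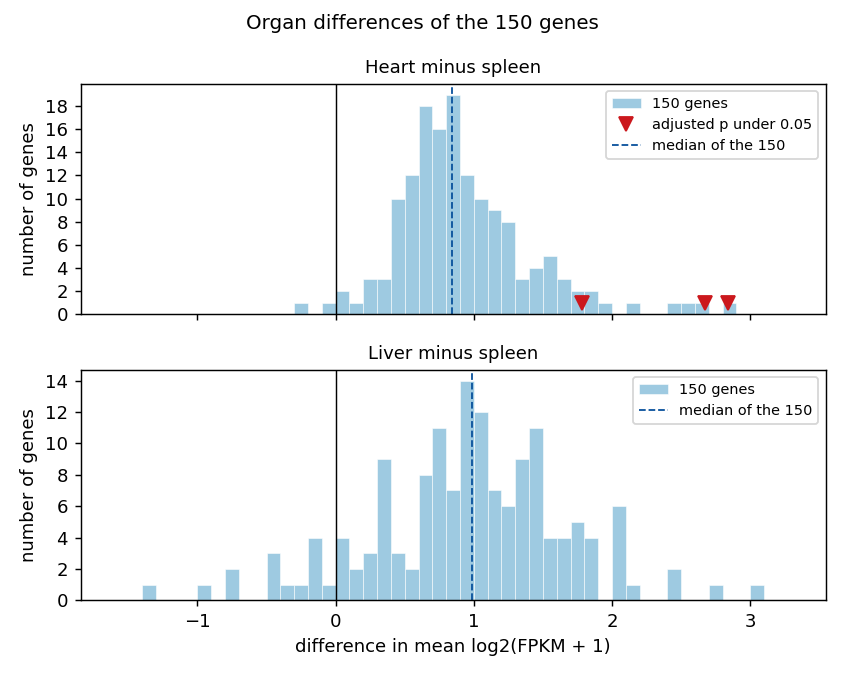
Histograms of the difference in mean log2(FPKM + 1) (horizontal axis) for heart minus spleen and liver minus spleen, with the number of the 150 genes in each bin on the vertical axis, a dashed line at the median and triangles at genes with an adjusted p under 0.05. The bulk of both histograms lies above 0, with medians of 0.84 and 0.987, and 3 genes carry triangles in the heart panel.

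The clearest of the 3 genes was ENSCAFG00000002987, which has a loading of -0.0202, near the end of the set. Its FPKM in the heart tumours was 12.22, 2.69, 15.72, 34.32, 0.46, 2.13, 7.89, 35.74, 18.87, 26.23 and 14.51 for hearts 1 to 11. In spleen it had a lowest value of 0 (spleen 15), a median of 0.358 and a highest value of 25.34 (spleen 16). The liver tumours were at 3.21, 0.88 and 0.39 FPKM. Every heart tumour was above the spleen median, 3 were above the highest spleen tumour, and heart 5 was again the lowest. The heart minus spleen difference was 2.67 ± 0.39 on the log2(FPKM + 1) scale (SE, limma adjusted p = 7.66e-05). Among Golden Retrievers alone it was 2.54 (limma adjusted p = 0.149).

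The second called gene had FPKM of 1.54 to 17.41 in heart (median 5.4) and 0 to 11.37 in spleen (median 0.4), and its liver values were 10.88, 1.85 and 1.24. Its difference was 1.78 ± 0.38 on the log2(FPKM + 1) scale (SE, limma adjusted p = 0.0279), with 11 of 11 heart tumours above the spleen median. Without heart 1, 7, 8 or 10 its limma adjusted p was 0.06, 0.0851, 0.0823 and 0.124. The third had 0.91 to 148.4 FPKM in heart (median 29.09) and 0 to 32.52 in spleen (median 1.03), with 186.0, 0.27 and 2.48 FPKM in the liver tumours. Its difference was 2.84 ± 0.65 on the same scale (SE, limma adjusted p = 0.0446), with 10 of 11 heart tumours above the spleen median. It lost its call in most of the settings that left out 1 tumour, with limma adjusted p from 0.0128 to 0.171. All 3 called genes belong to the block of 9 genes with its highest levels in hearts 10 and 9.

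The gene with the most negative difference in this comparison, ENSCAFG00000016867, had spleen FPKM of 0 to 79.68 with a median of 3.581, and the highest value was in spleen 20. In heart it ran from 0 (heart 5) to 9.942 (heart 3) with a median of 2.303, and the liver tumours were at 10.45, 4.77 and 1.21. The difference was -0.26 ± 0.47 on the log2(FPKM + 1) scale (SE, limma adjusted p = 0.861).

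The number of called genes in the heart comparison was small and moved with the model. It was 1 without heart 1, heart 7 or heart 10, and 1 without the titles that start with CHAD. The labels do not explain this prefix, which takes in heart 1 and 5 spleen tumours. Over the whole table the fits without heart 1, heart 7, heart 10 and the CHAD titles called 5, 5, 4 and 5 genes. The main fit called 20. With age, sex, breed class and neuter status in the model 1 gene of the set was called, among Golden Retrievers 0 and with array weights 14. Over the whole table these fits called 6, 2 and 499 genes. The count for the set was 0 where only genes averaging 5 FPKM or more were tested. Over the whole table that fit called 0 of 9591 genes. That filter left out ENSCAFG00000002987 and the called gene with a difference of 1.78, so neither was tested there. The called gene with a difference of 2.84 stayed in and did not pass (limma adjusted p = 0.126). Before adjustment 34 genes of the set had a limma p under 0.05 with the covariates and 16 in Golden Retrievers. With array weights 62 did, and so did 55 of the 143 that averaged 5 FPKM or more. The share of all genes tested at that threshold was not counted in these fits. With relative depth in the model, or without spleens 14 and 20, 2 genes of the set were called, and 19 and 29 over the whole table.

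The same fit compared liver with spleen tumours, and here too the differences of the genes are not independent of each other. Of the 150 genes limma called 0, where 0% of all genes tested were called, and the smallest adjusted p in the set was 0.167. Before adjustment 15 of the 150 had a p under 0.05, all higher in liver, or 10% of the set, where 3.66% of all genes tested were higher and 2.37% lower (6.04% in either direction). This number was 10, 18 and 9 without liver 1, 2 and 3, 23 without spleen 31 and 9 with relative depth in the model. The unadjusted share of all genes tested was not counted in these fits. The median difference was then 0.769, 1.311, 0.937, 1.035 and 0.769, in the same order. limma called 0 genes of the set each time, where it called 10, 17, 1, 0 and 1 over the whole table. Among Golden Retrievers, whose 1 liver tumour is assumed to vary like the other groups, the median difference was 0.189. With all tumours the median difference was 0.987 on the log2(FPKM + 1) scale, against -0.038 for all genes tested, and it was positive for 136 of the 150 genes. The range of -1.32 to 3.09 was wider than in heart, with a median SE of 0.81. All 3 liver tumours were from females, and their relative depths averaged 1.23 ± 0.2 (SD), against 1.06 ± 0.3 (SD) in spleen.

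For age at diagnosis no gene passed the adjusted threshold. limma called 0 of the 150 genes for a slope per year with organ in the model, where 0% of all genes tested were called (smallest adjusted p in the set 0.41). With no adjustment 39 of the 150 genes had a p under 0.05, all with lower levels in older dogs, or 26% of the set, where 3.33% of all genes tested had a negative and 3.52% a positive slope (6.85% in either direction). The median slope of the set was -0.143 per year on the log2(FPKM + 1) scale (median SE 0.1), against 0.004 for all genes, and 142 of the 150 slopes were negative. In the 32 spleen tumours alone 58 genes had an unadjusted p under 0.05 and the median slope was -0.196. Without spleen 15, whose dog was the youngest of the 46 at 3 years, 50 genes did and the median slope was -0.195. With array weights 26 genes did and the median slope was -0.123. None of these fits called a gene of the set after adjustment, and they called 0 genes over the whole table. The unadjusted share of all genes tested was not counted in them. The genes were chosen on 1 shared axis, so their slopes are not independent and the counts are not separate pieces of evidence.

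**Figure D5:**
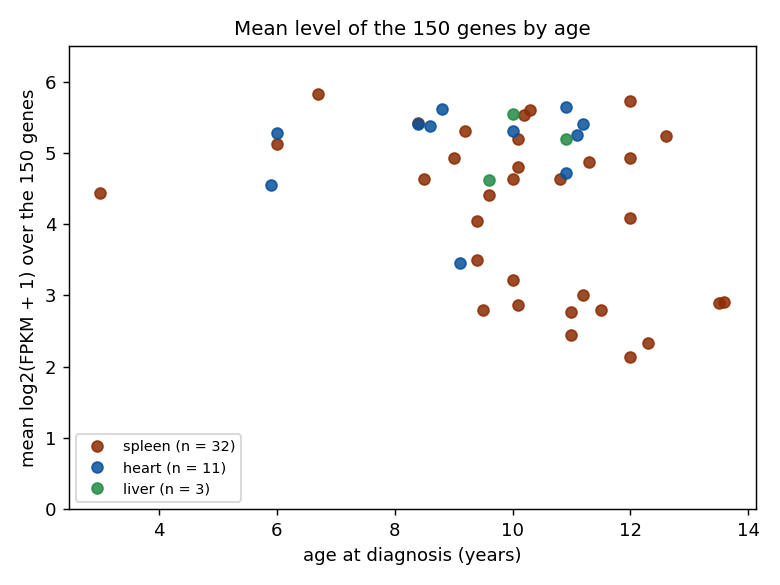
Mean log2(FPKM + 1) over the 150 genes (vertical axis) against age at diagnosis in years (horizontal axis) in the 46 tumours, coloured by tissue label. The lowest tumours come from dogs of 9.5 to 13.6 years, while dogs of similar age also reach levels above 5.

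Relative depth was tested in the same way. limma called 0 of the 150 genes for a slope per doubling of relative depth with organ in the model, where 0% of all genes tested were called (smallest adjusted p in the set 0.466). With no adjustment 36 of the 150 had a p under 0.05, all with higher levels in deeper libraries, or 24% of the set, where 5.09% of all genes tested had a positive and 5.11% a negative slope (10.2% in either direction). The median slope was 0.798 per doubling on the log2(FPKM + 1) scale (median SE 0.58), against -0.039 for all genes tested. Leaving out the shallowest library (spleen 7) and the deepest (spleen 13) left 7 genes at an unadjusted p under 0.05 and a median slope of 0.561. Among Golden Retrievers 3 genes did so, without the CHAD titles 19, in spleen alone 21 and with array weights 57. The share of all genes tested at that threshold was not counted in these alternative fits. Their counts therefore cannot be set against the whole table. With depth in the model the median heart minus spleen difference was 0.758 instead of 0.84, and the median slope on age was -0.153 instead of -0.143. These slopes, too, come from genes chosen on 1 shared axis and are not independent of each other. What part depth has in the levels of single genes was not tested further.

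Sex, neuter status and breed went with smaller median differences of the set than organ did. Mean levels over the set were 4.59 ± 1.0 in 24 males and 4.28 ± 1.21 in 22 females (SD), 4.41 ± 1.18 in 28 neutered and 4.49 ± 1.01 in 18 intact dogs (SD), and 4.46 ± 1.16 in 27 Golden Retrievers and 4.42 ± 1.05 in 19 dogs of other breeds (SD). limma called 0 of the 150 genes in each of these comparisons, where 0%, 0% and 0.00776% of all genes tested were called in either direction. Before adjustment 2 genes of the set had a p under 0.05 for sex, both higher in males, or 1.33%, where 2.22% of all genes tested were higher and 4.46% lower in males (6.68% in either direction). For neuter status 4 genes did, 1 higher and 3 lower in neutered dogs, or 2.67%, where 1.75% of all genes tested were higher and 1.63% lower (3.38% in either direction). For breed 2 genes did, both higher in Golden Retrievers, or 1.33%, where 1.04% of all genes tested were higher and 1.3% lower (2.34% in either direction). All these shares of the set are below or near those of the whole table. The median differences of the set were 0.283 for male minus female, -0.017 for neutered minus intact and 0.136 for Golden Retriever minus other breeds, on the log2(FPKM + 1) scale. Their median SEs were 0.42, 0.41 and 0.41. The differences were positive for 135, 73 and 107 of the 150 genes, or 90%, 48.7% and 71.3%. Of all genes tested 48.6%, 51.8% and 49.2% were positive. The genes are not independent of each other, so a common sign is not a count of separate results. Among Golden Retrievers alone the median for male minus female was -0.066.

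An interaction term asked whether the difference by sex, or by breed, was itself unlike in the heart and spleen tumours. limma called 0 of the 150 genes in both, where 0.0623% and 0% of 12844 genes were called. Before adjustment 0 genes of the set had a p under 0.05 for sex and 5 for breed, or 3.33%, where 3.42% and 4.29% of all genes tested passed. The median terms of the set were -0.379 and -0.33 (median SEs 1.05 and 0.96), against 0.014 and -0.012 for all genes tested. Terms were positive for 28% and 25.3% of the set, and for 51.4% and 48.6% of all genes tested. The genes are not independent of each other here either.

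Spleen tumours with CHAD titles (n = 5) had a mean level over the set of 4.52 ± 0.94 (SD), and those with DHSA titles (n = 27) of 4.09 ± 1.2 (SD). limma called 0 of the 150 genes between them, where 0% of 12645 genes were called, and 2 genes of the set had a p under 0.05 before adjustment. Both were higher in the CHAD titles, or 1.33% of the set, where 1.54% of all genes tested were higher and 2.51% lower (4.05% in either direction). The median CHAD minus DHSA difference of the set was 0.431 (median SE 0.7), against -0.013 for all genes tested. It was positive for 130 of the 150 genes, or 86.7%, where 48.1% of all genes tested were positive. Within the DHSA titles the heart comparison kept its direction, with a median difference of 0.933 over the set. The CHAD titles hold 1 heart tumour, too few for a value of their own.

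The edge of the set was not a natural gap. The last loadings inside were -0.02001 and -0.01996, and the first outside were -0.01996 and -0.01989. Leaving out any 1 of the 46 tumours kept 134 to 150 of the 150 genes among the 150 most negative. Computed on the spleen tumours alone the component kept 127 of them, on Golden Retrievers 130 and without the CHAD titles 131. Median-ratio rescaling kept 148 and quantile normalization 143. A pseudocount of 0.1 kept 96, all 150 of the genes staying among the 500 most negative. Scaling each gene to unit variance kept 23, with 79 among the 500 most negative.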

How the data were processed

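The authors deposited 1 table of FPKM values for 16382 genes and 51 tumours. The submitters' processing notes name CanFam3.1, Cuffdiff, TopHat 1.4.1 and FastQC 0.11.2. Annotation, strand and scaling between libraries are not stated there. Every column matched 1 sample title. No fragment counts were used, so no counting interval was computed. Relative depth came from the FPKM steps of 882 low genes, of which 27.0% gave the main step (window 0.04, log2) in the median library pair. The solution fitted 99.9% of library pairs to 0.05. It equals sequencing depth only if no other scaling was applied.

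The component came from a singular value decomposition of gene-centred log2(FPKM + 1). Comparisons used limma 3.58.1 in R 4.3.3 on all genes that reached 1 FPKM in 3 or more of the tumours fitted (mean trend, Benjamini-Hochberg adjustment over all genes tested, two-sided, threshold 0.05). A pseudocount of 1 understates changes of low genes. Organ comparisons shared 1 fit over 46 tumours. Other terms were added to organ, neuter status also to sex. The fits were tested on simulated data. The genes and lists were chosen with earlier results of these data known. Without symbols, the rule for named genes allowed 4 identifiers: the 2 most negative loadings and the highest and lowest moderated t between heart and spleen. The other 2 called genes therefore carry no identifier. The interaction terms were added after the values were seen.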

Additional observations from a re-analysis of the deposited data

How the results depend on the processing

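The count of called genes in the heart against spleen comparison was 3. It was 0 where only genes averaging 5 FPKM or more were tested, 14 with array weights and 1 without the CHAD titles. Among Golden Retrievers it was 0, with age, sex, breed class and neuter status in the model 1, and without a single tumour 1 to 4. Over the whole table the main fit called 20 genes, and these fits called 0, 499, 5, 2, 6 and 4 to 48, in the same order. The filter at 5 FPKM left out ENSCAFG00000002987 and the called gene with a difference of 1.78, so neither was tested there. Beyond that, the cause was not tested. In the 7 other comparisons the count was 0 under each alternative run, leaving aside liver against spleen among Golden Retrievers, with 1 liver tumour. Over the whole table some of these runs did call genes. Array weights called 11 for liver against spleen, 3 for sex and 4 for breed. Leaving out liver 2 called 17 for liver against spleen, and for age 2 were called among Golden Retrievers. Of the 150 genes 96 stayed in the set with a pseudocount of 0.1, 23 with genes scaled to unit variance and 134 to 150 without a single tumour. The heart minus spleen difference of the mean level was 0.94 and ran from 0.85 to 1.11, and the liver minus spleen difference was 0.96 and ran from 0.87 to 1.11. Relative depth as a covariate, leaving out spleens 14 and 20, and the fits without the extreme depths or the youngest dog were chosen after seeing the data. No paired analysis was possible because the labels do not link tumours to the same dog. Only relative depth is known, so a detection limit for low values could not be set, and 3 liver tumours limit the precision of the liver comparison.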
